A study of Mus musculus with 6 samples.

Results

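The aryl hydrocarbon receptor (AHR) pathway was examined in mouse group 2 innate lymphoid cells (ILC2s), lymphoid cells that lack antigen receptors and secrete type 2 cytokines. Its 6 members were chosen by name, as the receptor gene Ahr, its partner Arnt, its repressor Ahrr and the induced genes Cyp1a1, Cyp1b1 and Tiparp. All 6 were found among the 27179 Entrez gene IDs of the count table, and all 6 passed the low-count filter that left 12967 genes for testing. The ILC2s had been sorted by whether they fell in the positive or the negative gate for Chat, the gene for the acetylcholine-making enzyme choline acetyltransferase. Each gate had 3 libraries, numbered 1 to 3 in the labels and made with a SMARTer ultra-low-input kit. The tissue, the strain, sex and age of the mice, any stimulus, and the way Chat was detected are not stated in the sources. Nothing in the labels ties the libraries to different mice, and p-values may therefore reflect technical spread alone.

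AHR is a transcription factor of the bHLH-PAS family that senses small molecules, among them pollutants, plant indoles and tryptophan metabolites. Without ligand it is held in the cytosol by HSP90 and co-chaperones. With ligand it enters the nucleus, pairs with ARNT and binds DNA at xenobiotic response elements. Among the genes it induces are its own brakes, since CYP1A1 and CYP1B1 oxidise its ligands, AHRR competes with it for ARNT, and TIPARP modifies the receptor by mono-ADP-ribosylation. In mouse intestine, AHR is known to restrain ILC2 cytokine production and to maintain type 3 innate lymphoid cells (ILC3s).

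Libraries held between 37154269 and 50361306 counts. Chat stood at 188, 169 and 204 CPM in Chat positive libraries 1, 2 and 3, against 16.5, 26.5 and 17.5 CPM in Chat negative libraries 1, 2 and 3, as the gate labels state. CPM divide the counts by each library's scaled size, and a gate's values are given in the order of the library numbers. The libraries of number 2 stood apart from the other 4 in both gates, at 37.7 and 39.4 on a first principal component whose other libraries lay between -25.8 and -11.7 and which held 60.6% of the variance. Results are therefore also given by library number, and without number 2 where a member's value rests on it.

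No member passed the test between the gates. In edgeR's quasi-likelihood test, 0 of 6 members passed a 5% threshold after Benjamini-Hochberg adjustment over all genes, where 0.00771% of all genes tested passed. The count of members was also 0 at an unadjusted p under 0.05, where 2.43% of all genes tested had one. It was 0 past the adjusted threshold in limma-voom, where 1 of 12967 genes passed. In DESeq2, which gave no p for Cyp1b1, it was 0 where 4 of 12967 genes passed. With the replicate number as a block in edgeR, 2 of 6 members, Ahrr and Tiparp, had an unadjusted p under 0.05, where 16.5% of all genes tested did. None passed the adjusted threshold in that fit. The gates overlapped for all 6 members, while 8.14% of all genes tested had gates that did not overlap (4.53% higher and 3.61% lower in Chat positive cells). The members differed by library number. Ahr, Ahrr, Cyp1a1 and Cyp1b1 were highest in both number 2 libraries, and Cyp1a1 and Cyp1b1 were several-fold above their level elsewhere. Such a split was common, since both number 2 libraries lay above the other 4 for 26.3% of all genes tested and below for 23.4%.

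**Figure D1:**
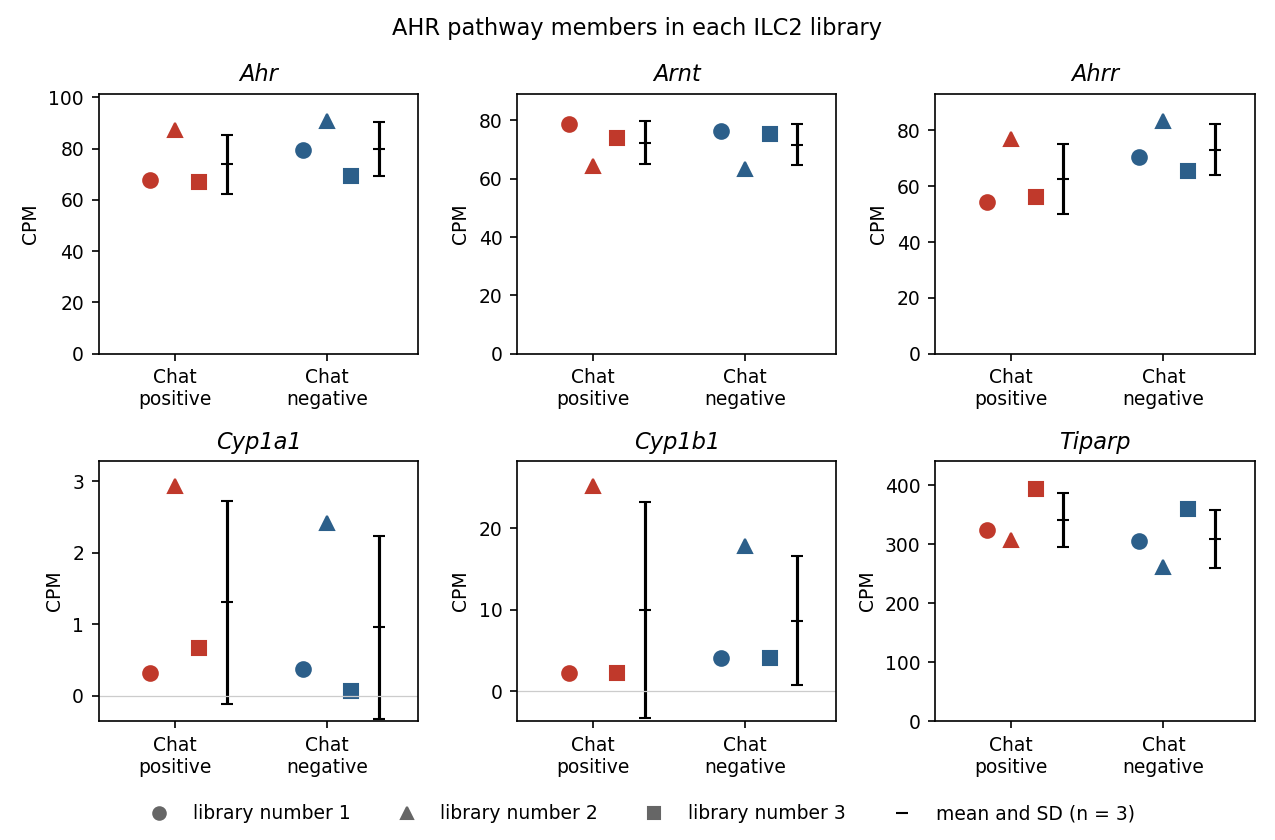
CPM of the 6 members in each library, Chat positive on the left of each panel and Chat negative on the right, with the mean and SD of each gate (n = 3) as black bars beside the points. Triangles mark library number 2, which is the highest of its gate for Ahr, Ahrr, Cyp1a1 and Cyp1b1 and the lowest of its gate for Arnt and Tiparp.

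Ahr, the receptor (Entrez 11622, minus strand, chr12:35497979-35534989 in GRCm38, the assembly of mm10), had 67.7, 87.3 and 66.96 CPM in Chat positive libraries, against 79.6, 90.7 and 69.5 CPM in Chat negative libraries. The number 2 library was the highest of its gate in both cases, and the gates overlapped. The Chat positive library was the lower in each number. Means were 74.0 ± 11.6 CPM in Chat positive and 79.9 ± 10.6 CPM in Chat negative cells (SD, n = 3 each). The log2 change was -0.11, with a 95% interval of -0.48 to 0.25 and an edgeR adjusted p of 1.00. As a ratio of Chat positive to Chat negative, that interval runs from 0.718 to 1.19. In bulk RNA, fewer cells that express a gene and less RNA per cell cannot be told apart. Of the 6163 exonic bases of Ahr, 127 overlap Gm48236 on the opposite strand, and the strand setting of the counting is not given, so reads there cannot be assigned.

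Arnt, the partner through which AHR binds DNA (Entrez 11863, plus strand, chr3:95434367-95497240), had 78.9, 64.5 and 73.8 CPM in Chat positive libraries, against 76.4, 63.5 and 75.3 CPM in Chat negative libraries. The number 2 library was the lowest of each gate, the opposite of Ahr. Means were 72.4 ± 7.28 CPM in Chat positive and 71.7 ± 7.15 CPM in Chat negative cells (SD, n = 3 each), and the log2 change was 0.01, with a 95% interval of -0.29 to 0.31. This was the narrowest interval among the 6 members.

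Ahrr, the repressor (Entrez 11624, minus strand, chr13:74211118-74292331), had 54.5, 76.9 and 56.3 CPM in Chat positive libraries, against 70.4, 83.2 and 65.6 CPM in Chat negative libraries. Within each number the Chat positive library was the lower, in 3 of 3 numbers, as for Ahr, and the gates overlapped because of number 2. The share of all genes with the same direction in all 3 numbers was not counted. Means were 62.5 ± 12.5 CPM in Chat positive and 73.1 ± 9.13 CPM in Chat negative cells (SD, n = 3 each). The log2 change was -0.22, with a 95% interval of -0.63 to 0.18 and an adjusted p of 1.00 in edgeR. With the replicate number as a block, Ahrr had an unadjusted p of 0.0113 and an edgeR adjusted p of 0.175. In that fit 16.5% of all genes tested had an unadjusted p under 0.05.

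Tiparp, the ADP-ribosyl transferase that dampens AHR (Entrez 99929, plus strand, chr3:65528447-65555518), was the most abundant member. It had 323, 307 and 394 CPM in Chat positive libraries, against 305, 262 and 360.1 CPM in Chat negative libraries. The Chat positive library was the higher in 3 of 3 numbers, and number 3 was the highest of each gate. The log2 change was 0.14, with a 95% interval of -0.22 to 0.51. With the replicate block in edgeR, Tiparp had an unadjusted p of 0.0218, as 16.5% of all genes tested had one under 0.05, and an adjusted p of 0.220. An annotated antisense gene, 4931440P22Rik, covers 223 of its 4358 exonic bases.

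Cyp1a1, the monooxygenase most often used as a readout of AHR activity (Entrez 13076, plus strand, chr9:57687928-57703824), was close to the limit of detection outside number 2. Its raw counts were 12, 151 and 27 in Chat positive libraries, against 16, 105 and 3 in Chat negative libraries. These counts equal 0.324, 2.93 and 0.671 CPM in Chat positive libraries, against 0.378, 2.42 and 0.0695 CPM in Chat negative libraries. Exact Poisson 95% intervals, which cover counting error only, were 2.48 to 3.44 CPM in Chat positive 2 and 1.98 to 2.93 CPM in Chat negative 2. Each of the other 4 libraries had an upper bound of at most 0.976 CPM. The 2 libraries of number 2 thus lay above the other 4 beyond counting error, in both gates.

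Between the gates, Cyp1a1 averaged 1.31 ± 1.42 CPM in Chat positive and 0.956 ± 1.28 CPM in Chat negative cells (SD, n = 3 each). The log2 change was 0.46, with a 95% interval of -2.42 to 3.35, so changes of several-fold in either direction were not detectable with this spread. By number, the Chat positive to Chat negative ratio was 0.858 (counting interval 0.370 to 1.93) for number 1, 1.21 (0.938 to 1.57) for number 2 and 9.66 (2.97 to 49.7) for number 3. The last ratio rests on the 3 counts of Chat negative 3. Without both libraries of number 2 the log2 change was 1.15, with an edgeR adjusted p of 0.736.

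Cyp1b1, the other ligand-oxidising monooxygenase (Entrez 13078, minus strand, chr17:79706940-79715061), had 2.24, 25.2 and 2.31 CPM in Chat positive libraries, against 4.11, 17.8 and 4.0976 CPM in Chat negative libraries. Number 2 was 11.1 times the mean of the other libraries in the Chat positive gate and 4.34 times in the Chat negative gate. The highest library had 11.2 times the CPM of the lowest. Among the 9469 tested genes with a mean of at least 5 CPM, 99.8% had a smaller ratio of highest to lowest library. Over all genes tested 96.8% had a smaller ratio, and the median ratio was 1.59.

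The direction of the Cyp1b1 difference between the gates was not the same in every number. The intervals by number cover counting error only, and libraries of a gate differed by more than that. The Chat positive to Chat negative ratio was 0.545 (counting interval 0.415 to 0.712) for number 1, 1.41 (1.29 to 1.55) for number 2 and 0.564 (0.434 to 0.729) for number 3. Over all libraries the means were 9.91 ± 13.2 CPM in Chat positive and 8.68 ± 7.92 CPM in Chat negative cells (SD, n = 3 each), with a log2 change of 0.20 and a 95% interval of -2.30 to 2.696. Without both libraries of number 2 the log2 change was -0.85, with an unadjusted p of 0.0163 and an edgeR adjusted p of 0.516. Whether the gate difference itself differed between numbers could not be tested with 1 library per gate and number.

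**Figure D2:**
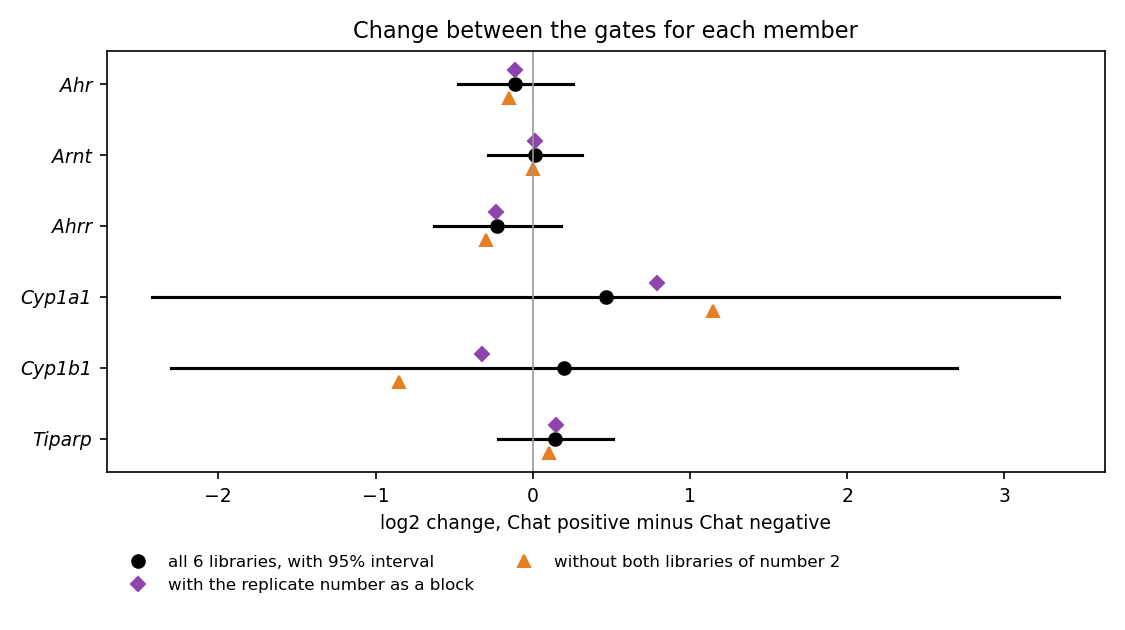
Log2 change of each member, Chat positive minus Chat negative, from edgeR over all 6 libraries (black circle, 95% interval as a line), with the replicate number as a block (purple diamond) and without both libraries of number 2 (orange triangle). Every interval includes 0, and Cyp1b1 lies at 0.20 over all libraries but at -0.85 without number 2.

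Per kilobase of the longest GENCODE transcript, the members fell into 3 levels in both gates. Tiparp stood at 81.4 ± 11.0 CPM per kilobase in Chat positive and 73.7 ± 11.8 in Chat negative cells, above 92.4% of the genes tested that have a length. Arnt followed at 16.7 ± 1.68 in Chat positive and 16.6 ± 1.65 in Chat negative cells. Ahr came next at 13.3 ± 2.08 and Ahrr at 12.3 ± 2.44 in Chat positive cells, against 14.4 ± 1.91 for Ahr and 14.3 ± 1.79 for Ahrr in Chat negative cells. Ahr and Ahrr did not differ beyond their spread in either gate. In number 2 the order of Arnt and the other 2 was the reverse, with Ahr at 15.7, Ahrr at 15.1 and Arnt at 14.9 CPM per kilobase in Chat positive 2. Cyp1b1 at 1.93 ± 2.58 and Cyp1a1 at 0.485 ± 0.525 in Chat positive cells, against 1.69 ± 1.54 and 0.354 ± 0.474 in Chat negative cells, were the lowest, with SDs about as large as their means. Ahrr was thus at the level of the receptor in these cells, while Cyp1a1 was above only 11.5% of the genes tested that have a length.

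The replicate number was then tested over its 3 values in edgeR, with the gate as a term, a comparison chosen after the data were seen. Of the 6 members, 5 passed the 5% threshold, where 32.5% of all genes tested passed. All 6 had an unadjusted p under 0.05, where 43.1% of all genes tested did. Adjusted p was 0.00334 for Cyp1b1, 0.00339 for Tiparp, 0.0106 for Cyp1a1, 0.0125 for Ahrr and 0.0159 for Ahr. Arnt, at 0.0502, lay just outside. The labels do not say what the numbers stand for. Without Chat positive 2 the test called 2 members, Cyp1b1 and Tiparp, and without Chat negative 2 it called Cyp1b1 alone, among 1677 and 1368 genes in place of 4208.

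Other genes known to be induced through AHR moved in both directions by number. Of 12 tested genes among 18 listed, 7 passed the test of the number, where 32.5% of all genes tested passed. Both number 2 libraries lay above the other 4 for 5 of them and below for 5, where 26.3% of all genes tested lay above and 23.4% below. Nqo1, a quinone reductase of the classical AHR gene battery, had 29.5, 66.6 and 29.4 CPM in Chat positive libraries, against 18.7, 49.8 and 25.4 CPM in Chat negative libraries. Its edgeR adjusted p for the number was 1.42e-04. Aldh3a1, an aldehyde dehydrogenase of the same battery, had 13.1, 19.3 and 10.6 CPM in Chat positive libraries, against 7.47, 14.6 and 8.45 CPM in Chat negative libraries (adjusted p = 0.00755 for the number). The amino acid carrier Slc7a5 and the cytokine signalling inhibitor Socs2 also lay higher in number 2.

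The opposite held for the Notch target Hes1, with 28.5, 10.4 and 29.2 CPM in Chat positive libraries, against 33.0, 12.7 and 33.96 CPM in Chat negative libraries (adjusted p = 5.82e-05 for the number). Entpd1, the ectonucleotidase CD39, and the cyclin gene Ccng2 were likewise lowest in number 2. The cytokine gene Il22, an AHR target in ILC3s, had 2.73, 1.67 and 4.37 CPM in Chat positive libraries, against 4.54, 0.184 and 4.58 CPM in Chat negative libraries, and did not pass. These 8 genes were described by number after their values were seen. Cyp1a2, the liver member of the CYP1 family, had 0 counts in all 6 libraries, and a level below 3 counts (0.0811 CPM in the smallest library) would not be seen.

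**Figure D3:**
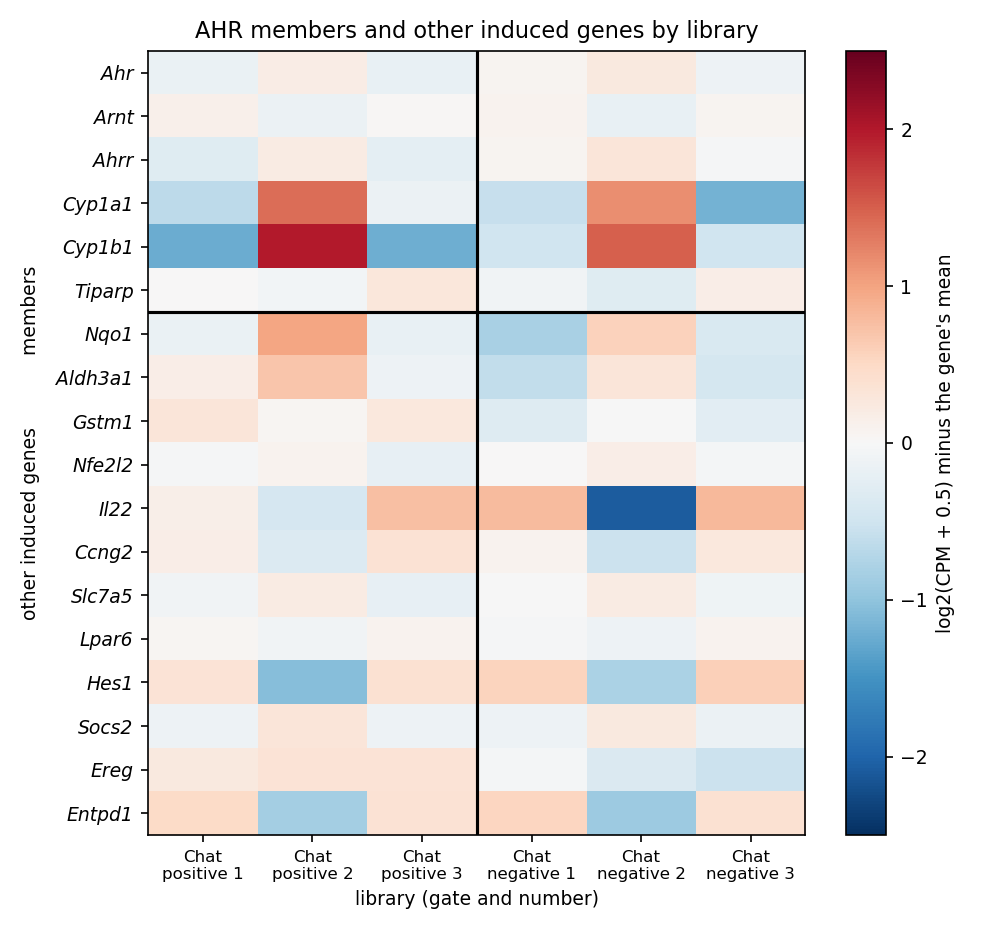
Log2(CPM + 0.5) of each gene minus its mean over the 6 libraries, with Chat positive libraries 1 to 3 on the left and Chat negative libraries 1 to 3 on the right, members above the line and the 12 tested genes of the list of other induced genes below it. Red is above the gene's mean and blue below, and the number 2 columns are red for Cyp1a1, Cyp1b1, Nqo1 and Aldh3a1 and blue for Hes1, Entpd1 and Il22.

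Markers of other cell types also differed by number. Summed CPM of the 8 epithelial markers were 59.3, 34.6 and 54.8 in Chat positive libraries, against 89.0, 37.5 and 89.6 in Chat negative libraries, nearly all from Epcam. The sum was lowest in number 2, where Cyp1a1 was highest, and Krt8 had at most 2 counts in a library. The 8 stromal markers summed to 96.4, 57.9 and 68.8 CPM in Chat positive libraries, against 77.8, 47.6 and 68.0 CPM in Chat negative libraries, nearly all from Pecam1. The endothelial Cdh5 and Kdr had 0 counts in every library, and Col1a1, a collagen gene of fibroblasts, stood at 1.000, 1.48 and 1.42 CPM in Chat positive libraries, against 1.13, 0.807 and 0.579 CPM in Chat negative libraries. The mast and basophil list, mainly Mcpt8, summed to 124, 25.05 and 148 CPM in Chat positive libraries, against 134, 30.8 and 203 CPM in Chat negative libraries, and 6 of its 8 markers had at most 10 counts in any library, with Cpa3 at 0. The part of these differences in the result was not tested.

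Of the other lists, 12 ILC2 markers, all detected, summed to 27883, 22426 and 29393 CPM in Chat positive libraries. In Chat negative libraries they summed to 21148, 20844 and 24036 CPM, so number 2 was the lowest of each gate. Il5, which was lowest in number 2, and Il2ra, which was highest there, were the most abundant. The 8 ILC3 markers were highest in number 2, as Cyp1a1 and Cyp1b1 were, and summed to 199, 281 and 164 CPM in Chat positive libraries, against 174, 251 and 159.7 CPM in Chat negative libraries. Almost all of this came from Kit, which ILC2s can also express, and 3 of 8 had no more than 10 counts in any library. The 8 T cell markers were lowest in number 2, at 105, 57.4 and 79.2 CPM in Chat positive libraries, against 123.03, 70.2 and 81.2 CPM in Chat negative libraries. This sum was mostly Lck and Cd3g, and Cd8b1 had 0 counts. The sum of the 6 B cell markers was also highest in number 2, at 313, 361 and 288 CPM in Chat positive libraries, against 346, 427 and 344 CPM in Chat negative libraries. Nearly all of that sum came from Ighm and Cd79b, while Ms4a1, Cd79a and Pax5 had at most 6 counts in a library. Only Ighm of these was highest in number 2, at 293 CPM in Chat positive 2 and 360 CPM in Chat negative 2. Cd79b was lowest there, with 85.4, 68.5 and 85.3 CPM in Chat positive libraries, against 71.6, 66.1 and 74.1 CPM in Chat negative libraries. The sum of the 8 myeloid markers, mostly Cd68 and Adgre1, was lowest in number 2. It was 23.9, 8.27 and 20.3 CPM in Chat positive libraries, against 24.4, 8.18 and 23.2 CPM in Chat negative libraries. The part of these list differences in the result was not tested either.

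The promoters of the induced members are shown because these genes share a way of being switched on, through the motif that AHR and ARNT bind. Each window, from RefSeq in build GRCm38.p6, runs from 250 bases before to 50 after an annotated start, and is written 5′ to 3′ on the gene's strand. Capitals mark the core motif GCGTG or its reverse complement CACGC. The windows are chr9:57697363-57697662 for Cyp1a1 (plus strand), chr17:79715012-79715311 for Cyp1b1 (minus), chr13:74292282-74292581 for Ahrr (minus) and chr3:65528197-65528496 for Tiparp (plus).
Cyp1a1: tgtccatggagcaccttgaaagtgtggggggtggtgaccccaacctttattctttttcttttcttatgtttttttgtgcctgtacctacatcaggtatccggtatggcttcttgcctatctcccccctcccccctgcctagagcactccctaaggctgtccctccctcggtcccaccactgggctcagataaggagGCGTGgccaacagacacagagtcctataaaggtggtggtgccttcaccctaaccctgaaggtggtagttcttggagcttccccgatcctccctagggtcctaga
Cyp1b1: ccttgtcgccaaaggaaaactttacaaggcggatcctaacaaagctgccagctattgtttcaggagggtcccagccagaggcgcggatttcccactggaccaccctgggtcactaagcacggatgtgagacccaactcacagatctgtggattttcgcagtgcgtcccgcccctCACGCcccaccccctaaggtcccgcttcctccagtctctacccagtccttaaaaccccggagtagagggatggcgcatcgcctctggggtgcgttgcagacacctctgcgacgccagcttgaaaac
Ahrr: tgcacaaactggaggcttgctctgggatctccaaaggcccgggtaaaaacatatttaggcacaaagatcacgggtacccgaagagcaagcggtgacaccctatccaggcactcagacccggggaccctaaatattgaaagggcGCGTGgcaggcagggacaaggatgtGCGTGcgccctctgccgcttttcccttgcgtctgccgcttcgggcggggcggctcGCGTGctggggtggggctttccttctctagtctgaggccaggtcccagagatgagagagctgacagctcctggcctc
Tiparp: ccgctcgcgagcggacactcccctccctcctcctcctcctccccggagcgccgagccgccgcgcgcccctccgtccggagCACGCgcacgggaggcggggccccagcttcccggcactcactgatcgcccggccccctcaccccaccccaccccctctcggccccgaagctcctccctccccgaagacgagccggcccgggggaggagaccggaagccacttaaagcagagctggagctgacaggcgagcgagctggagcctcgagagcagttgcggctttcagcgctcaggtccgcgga

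The Ahrr window held 3 core matches, centred 105, 80 and 25 bases before the start, all on the gene's strand. Of 32851 windows in the table, 3.91% held 3 or more. The match nearest the start also fits the extended motif TNGCGTG, which contains the core and was found on either strand in 5.07% of windows. Cyp1a1 held 1 core match 52 bases before the start, Cyp1b1 held 1 on the other strand 74 bases before it, and Tiparp held 1 on the other strand 168 bases before it. For Cyp1a1 and Arnt the annotated start used here lies inside the gene bounds given above, not at their first base. Arnt also held 1 match, 27 bases before its start, and 32.4% of all windows held at least 1. The CYP genes had as many matches here as Arnt and Tiparp, and a link between matches and the spread between libraries was not tested. A match is a description of the letters, and the known response elements of Cyp1a1 lie farther upstream than this window.

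**Figure D4:**
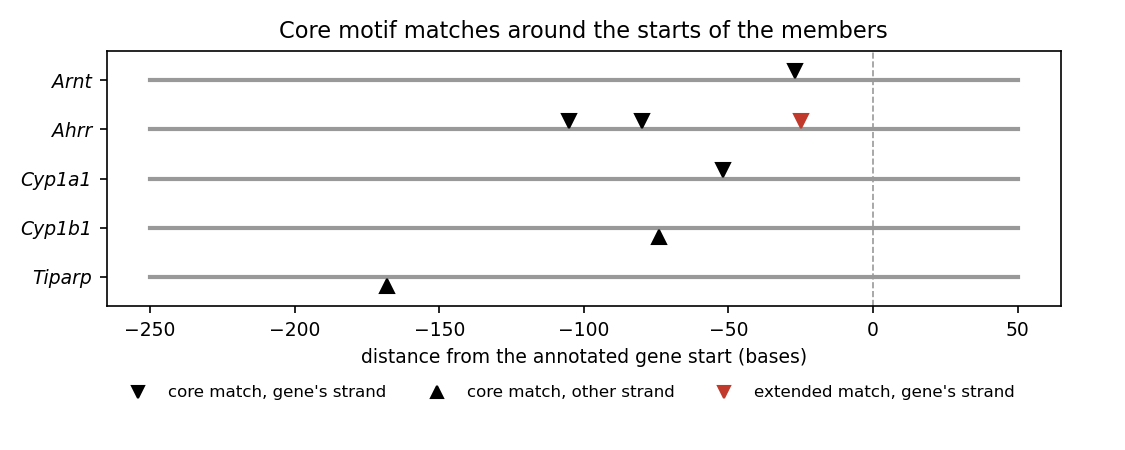
Positions of core motif matches within the promoter windows of 5 members, as the distance in bases from the annotated start (dashed line), with matches on the gene's strand above the line and on the other strand below it. Ahrr has 3 matches, 1 of them extended (red), and each of the other genes has 1.

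Among the partners of the pathway, none of 93 tested genes in 9 lists passed the edgeR threshold between the gates, and 9 had an unadjusted p under 0.05, where 2.43% of all genes tested did. DESeq2 and limma-voom called none of the 93 either. With the replicate block 3 passed, Gstt1, Il1rl1 and Il5, all higher in Chat positive cells, where 0.339% of all genes tested passed. Il1rl1 and Il5, and 3 of the 9 genes above, belong to the list of ILC2 genes. That list was drawn up with the cytokine results of these data known, so these counts are no independent finding. The median log2 change over all genes tested was 0.00, with 6594 above 0 and 6373 below.

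The cytosolic complex that holds unliganded AHR had 6 of 9 tested genes above 0, a median log2 change of 0.02 and 0 past the threshold. Hsp90ab1, the constitutive HSP90 chaperone, stood at 1334 ± 90.8 CPM in Chat positive and 1315 ± 151 CPM in Chat negative cells (SD, n = 3 each). The chaperone gene Hspa8 stood at 391.8 ± 30.8 CPM in Chat positive and 387 ± 29.6 CPM in Chat negative cells. Both have near-identical processed copies in the genome, so their counts are uncertain. The scaffold Stip1 stood at 308 ± 37.4 and the phosphatase Ppp5c at 78.3 ± 8.48 CPM in Chat positive cells, against 285 ± 42.6 and 69.5 ± 2.26 CPM in Chat negative cells.

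Other bHLH-PAS genes, some of which compete for ARNT, had 1 of 8 tested genes above 0 and a median log2 change of -0.16, with 0 past the threshold. Hif1a, the hypoxia factor that also pairs with ARNT, stood at 1423 ± 238 CPM in Chat positive and 1534 ± 392.4 CPM in Chat negative cells. Its relative Epas1 stood at 46.5 ± 6.44 CPM in Chat positive and 52.8 ± 4.38 CPM in Chat negative cells. Arnt2, a close relative of Arnt, stood at 10.3 ± 4.84 CPM in Chat positive and 14.5 ± 2.46 CPM in Chat negative cells, and the clock gene Arntl at 54.7 ± 1.798 CPM in Chat positive and 53.1 ± 2.52 CPM in Chat negative cells. Sim1 and Sim2 had at most 1 count in a library.

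In the list of other induced genes, 7 of 12 tested lay above 0 between the gates, with a median log2 change of 0.04 and 0 past the threshold. Gstm1, a glutathione transferase of a family of similar genes, had 231, 193 and 224 CPM in Chat positive libraries, against 149, 186 and 155 CPM in Chat negative libraries. Its gates did not overlap, with a log2 change of 0.40 (SE 0.13) and an adjusted p of 1.00 in edgeR. Ereg, a growth factor of the EGF family, stood at 1.44 ± 0.0764 CPM in Chat positive and 0.770 ± 0.224 CPM in Chat negative cells, also without overlap. These were the 2 genes of 12 whose gates did not overlap, where 8.14% of all genes tested did not. Ccng2 stood at 408 ± 98.7 and the receptor Lpar6 at 297 ± 19.8 CPM in Chat positive cells, against 378 ± 102 and 288 ± 20.1 CPM in Chat negative cells.

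Enzymes that make tryptophan-derived ligands had 7 tested genes among 12 listed, with 2 above 0, 0 past the threshold and a median log2 change of -0.11. Il4i1, an amino acid oxidase that yields AHR ligands, had at most 2 counts in a library, Tdo2 at most 5 and Aadat 0. Kmo, which consumes kynurenine, stood at 2.11 ± 1.04 CPM in Chat positive and 2.94 ± 0.477 CPM in Chat negative cells. The kynurenine aminotransferase genes Kyat1 and Kyat3 stood at 4.64 ± 0.582 and 14.1 ± 2.08 CPM in Chat positive cells, against 3.73 ± 0.718 and 16.3 ± 3.26 CPM in Chat negative cells. The mitochondrial aminotransferase gene Got2 stood at 77.0 ± 18.8 CPM in Chat positive and 83.0 ± 22.9 CPM in Chat negative cells.

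Carriers and conjugating enzymes had 4 of 11 tested genes above 0 and a median log2 change of -0.06, with 0 past the threshold. Gstt1, a glutathione transferase, had 23.7, 10.9 and 24.4 CPM in Chat positive libraries, against 9.22, 6.39 and 14.3 CPM in Chat negative libraries. Each Chat positive library was above the Chat negative one of its number, and the gates overlapped through Chat positive 2. The difference was 0.98 on the log2 scale (SE 0.40). Its adjusted p in edgeR was 1.00, and 0.0442 with the replicate block. The glucuronosyl transferase Ugt1a7c, which shares exons with its family, stood at 0.178 ± 0.143 CPM in Chat positive and 0.614 ± 0.301 CPM in Chat negative cells. Slc7a5 and Slc3a2, the chains of a carrier that takes up kynurenine, stood at 211 ± 31.8 and 271 ± 63.1 CPM in Chat positive cells, against 219 ± 25.6 and 261 ± 62.7 CPM in Chat negative cells.

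Genes of AHR turnover had 4 of 8 above 0 and a median log2 change of 0.01, with 0 past the threshold. The ubiquitin ligase genes Rbx1 and Ddb1 stood at 126 ± 6.11 and 635 ± 121 CPM in Chat positive cells, against 119 ± 9.797 and 639.8 ± 94.4 CPM in Chat negative cells. Tbl3 stood at 62.1 ± 15.1 and the proteasome gene Psmd2 at 351 ± 61.5 CPM in Chat positive cells, against 56.1 ± 7.87 and 366 ± 67.3 CPM in Chat negative cells.

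Cofactors that AHR and ARNT bind had 3 of 19 above 0 and a median log2 change of -0.25, with 0 past the threshold, and the gates did not overlap for 5 of 19, where 8.14% of all genes tested did not. The acetyltransferase gene Ep300 stood at 89.2 ± 12.6 CPM in Chat positive and 113 ± 5.58 CPM in Chat negative cells, with an unadjusted p of 0.0339 and an adjusted p of 1.00 in edgeR. The coactivator gene Ncoa3 stood at 398 ± 9.44 and Klf6 at 349.7 ± 36.7 CPM in Chat positive cells, against 416 ± 13.2 and 399 ± 45.5 CPM in Chat negative cells.

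Relatives of Tiparp had 5 of 13 above 0 and a median log2 change of -0.11, with 0 past the threshold. Parp11 and the interferon-linked Parp14 stood at 15.3 ± 1.103 and 60.4 ± 12.6 CPM in Chat positive cells, against 18.3 ± 1.55 and 78.8 ± 21.2 CPM in Chat negative cells. The antiviral Zc3hav1 stood at 114 ± 9.24 and Parp9 at 109 ± 10.2 CPM in Chat positive cells, against 129 ± 11.2 and 118 ± 11.0 CPM in Chat negative cells.

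ILC2 genes that studies of AHR have measured had 6 of 7 above 0, the highest median of the 9 lists at 0.46, and 0 past the threshold. They were listed with the cytokine results of these data known, so the direction is no independent finding. Il5, Il13 and Areg, the cytokine and repair genes, had log2 changes of 0.67, 0.50 and 0.46 and unadjusted p of 0.0318, 0.00409 and 0.00630 in edgeR. Gata3 lay at -0.10. Il1rl1, the IL-33 receptor that AHR restrains in mouse gut ILC2s, had 133, 82.0 and 159.2 CPM in Chat positive libraries, against 79.1, 58.6 and 119.9 CPM in Chat negative libraries, with number 2 the lowest library of each gate. Gfi1, a repressor gene measured with it, had 8.40, 5.22 and 15.9 CPM in Chat positive libraries, against 8.65, 6.39 and 9.82 CPM in Chat negative libraries, with number 2 again the lowest of each gate. The edgeR adjusted p for the number was 1.99e-04 for Il1rl1 and 0.0183 for Gfi1, both described by number after their values were seen.

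**Figure D5:**
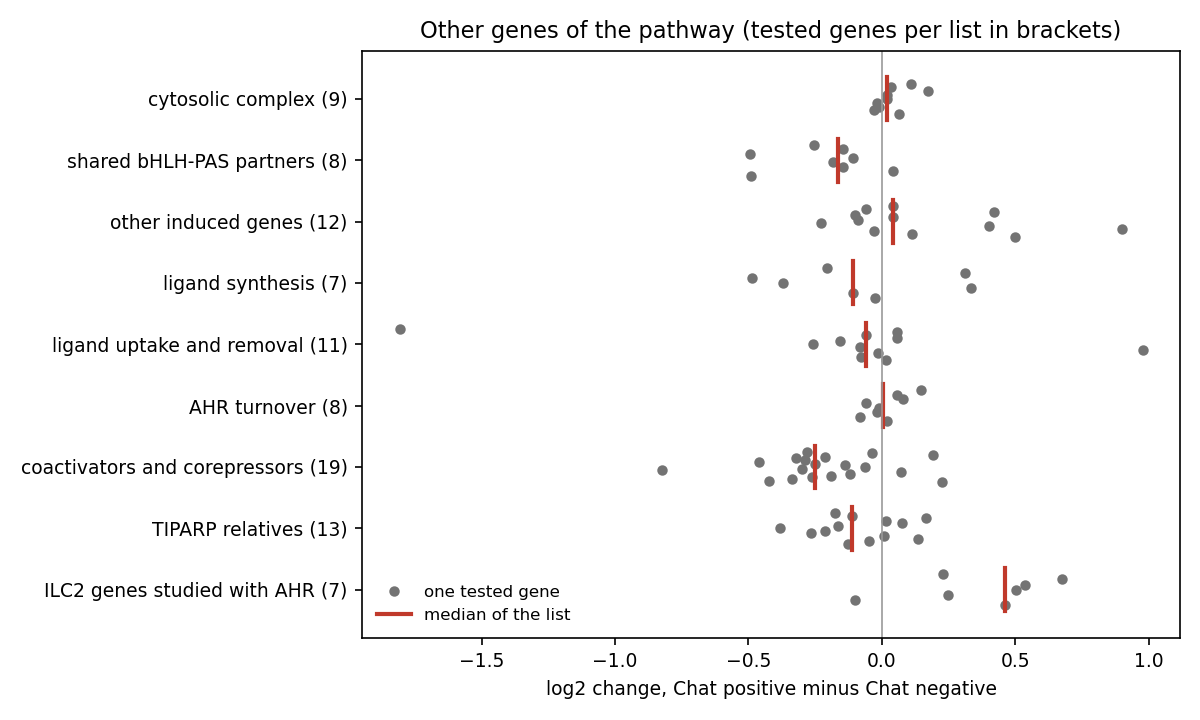
Log2 change between the gates, Chat positive minus Chat negative, of each tested gene in 9 lists of pathway partners, with 1 point per gene and the list median as a red line. Medians run from -0.25 for the cofactors to 0.46 for the ILC2 genes, and no gene passed the edgeR threshold.

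Likeness of pattern was the root mean square difference of log2(CPM + 0.5) over the 6 libraries, each gene centred on its own mean. The 3 nearest genes were taken for each member. For Ahr these were Washc5, Gbf1 and Cand1, at differences of 0.0157, 0.0345 and 0.0355, and 456 of 8232 genes lay within 0.1. For Ahrr they were Nup214, Cltc and Spata13, at 0.0342, 0.0342 and 0.0391, with 154 genes within 0.1. Ahr and Ahrr lay 0.0754 from each other, with Ahr at rank 48 in likeness to Ahrr and Ahrr at rank 144 in likeness to Ahr. Arnt was most like Rbfa, Arhgap9 and Bbc3, from 0.0207 to 0.0263, and Tiparp most like Ccdc137, Map1lc3a and Ddx3y, from 0.0199 to 0.0320.

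The CYP genes had few genes like them, none within 0.2. The added 0.5 exceeds the CPM of Cyp1a1 in Chat positive 1 and in Chat negative 1 and 3, which shrinks its log2 spread. Cyp1a1 was nearest to the transcription factor Myb at 0.284, followed by Fam25c at 0.306 and the amino acid carrier Slc7a8 at 0.317. Cyp1b1 was nearest to Prr5l at 0.479, followed by Spns3 at 0.561 and Fam25c at 0.568. Slc7a8 had 136, 377 and 135 CPM in Chat positive libraries, against 126, 378 and 118 CPM in Chat negative libraries, with number 2 apart in both gates. Cyp1a1 and Cyp1b1 differed from each other by 0.632, with Cyp1a1 at rank 10 among 8233 genes in likeness to Cyp1b1. In the other direction, Cyp1b1 was only at rank 351 in likeness to Cyp1a1.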

How the data were processed

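RNA of sorted mouse ILC2s was sequenced in 6 libraries, 3 per Chat gate. Per the submitters' processing notes, the tools were CASAVA 1.8.2 and STAR 2.3.0 and the build was mm10. The authors deposited raw read counts per Entrez gene ID, judged from whole numbers with unequal column sums, and the counting program, annotation and strand setting are not stated in the sources. Symbols came from the RefSeq table of GRCm38.p6 for 25275 of 27179 IDs, and lengths from the longest GENCODE vM21 transcript, known for 93.2% of genes tested. The other 1904 IDs held at most 0.222% of a library and were kept.

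Genes were filtered with filterByExpr and libraries scaled by TMM. Gates were compared by the quasi-likelihood test of edgeR (robust dispersions, both directions), with p adjusted over all 12967 genes and a 5% threshold (R 4.3.3, edgeR 4.0.16, limma 3.58.1, DESeq2 1.42.0). The models were tested on simulated data. The members and lists were chosen with earlier results of these data known. The naming rule took all members, from each pathway list the 2 smallest p and the 2 most abundant tested genes, from each marker list the 2 most abundant, and for likeness the 3 nearest genes with a mean of at least 10 CPM. Some genes this rule takes are not reported here. The gates share the numbers 1 to 3, and deviations from the gate means correlated at 0.385, 0.776 and 0.521 within numbers. Across numbers, Chat positive 1 with Chat negative 3 gave 0.286, and Chat positive 3 with Chat negative 1 gave 0.420. The correlations thus set number 2 apart but do not settle how numbers 1 and 3 pair. The numbers were taken as pairs in the blocked alternative, on the data and not on a label, and its p-values depend on that choice. Libraries of a gate all differed by more than sampling noise (lowest chi-square over its degrees of freedom 29.9). Total counts of at least 37154269 put 3 counts at 0.0811 CPM or less.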

Additional observations from a re-analysis of the deposited data

How the results depend on the processing

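No member with an adjusted p was past the gate threshold under the 20 other settings tried (normalisation, filter, block, DESeq2 plain or blocked, limma-voom, dispersions, threshold, each library or number left out), and Ahr, Ahrr and Tiparp kept the sign of their log2 change in all 20. The widest range of adjusted p among these 3 was 0.106 to 1.00, for Ahrr. Signs turned for Arnt, Cyp1a1 and Cyp1b1. Leaving out libraries gave log2 changes of -0.067 to 0.089 for Arnt, -0.94 to 2.55 for Cyp1a1 and -1.93 to 1.28 for Cyp1b1. Cyp1b1 was -0.32 with the replicate block, -0.38 in DESeq2 with the block and -0.26 in limma-voom. The cause was not tested. A filter of at least 5 CPM in 3 libraries removed both CYP genes, and DESeq2 gave no adjusted p for Cyp1b1 without the block or for Cyp1a1 with it. Genes past the gate threshold numbered 1, against 44 with the replicate block, 4 in DESeq2, 476 in DESeq2 with the block and 0 to 2 with libraries left out (2 without number 2). Settings that left out both libraries of a number were chosen after the data were seen. Where 1 library or both of a number were left out and no gene passed, 53 to 350 genes had an unadjusted p under 0.05. Pathway list genes past it numbered 0, against 3 with the block and 13 in DESeq2 with the block. With the block, Chat, the only gene past the threshold without it, had an edgeR adjusted p of 0.0961. In the test of the number, chosen after the data were seen, genes ranged from 1368 to 5173 and members from 1 to 6 with a library left out. Depth limits Cyp1a1, with 3 to 27 counts outside number 2.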
